A study of Mus musculus with 26 samples.

Results

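Ucp1 and 9 genes that switch on, feed or accompany heat production in brown fat were followed through RNA immunoprecipitates made with an antibody to IMP2. The 10 genes were taken by symbol (Ucp1, Dio2, Ppargc1a, Ppara, Pparg, Prdm16, Esrra, Adrb3, Pank1 and Elovl3), and where a gene had several transcript rows the row with the highest summed count was kept. They are 10 of the 9378 genes listed in either deposited count table. IMP2 is the product of Igf2bp2 and binds mRNAs, whose translation and stability it can alter. The series' title ties loss of IMP2 to translation of Ucp1 mRNA; translation was not measured in these libraries. The mice were Imp2-/- animals and their wild-type littermates, kept on a C57Bl/6J background and bred from heterozygous parents. All brown fat came from males of 10 weeks on normal chow that had spent a night at 4 °C, so every group, controls included, was exposed to cold and none was kept warm. Of 26 samples, the 12 from brown fat are used, and the 14 from liver were not analysed here.

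The first table, called the knockout table here, holds wild-type total RNA (libraries 16 and 17), Imp2-/- total RNA (18 and 19), wild-type IMP2 immunoprecipitates (21 and 22) and Imp2-/- immunoprecipitates made with the same antibody (23 and 24). The other, called the IgG table, is from wild-type mice alone, with total RNA (15 and 20), a single IMP2 immunoprecipitate (25) and a single control immunoprecipitate with nonspecific IgG (26). The Imp2-/- and IgG immunoprecipitates both measure RNA recovered without IMP2 binding. The knockout table lists 1189 genes, among them Ucp1, Dio2 and Pank1. For the other 7 members no Imp2-/- value was analysed here. All 10 members are in the IgG table and passed its filter on low counts. Libraries of the knockout table summed to 780333 to 4916160 counts, and those of the IgG table to 1321756 to 3750103. Values are CPM, a gene's counts scaled to a common library total over the genes its table lists. The tables list different genes, so a CPM of one table is not on the scale of the other. The counts carry no transcript length, and levels are compared within a gene only. Whether replicate libraries came from separate mice is not stated in the labels, and p-values here measure the spread among libraries, which may be technical.

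In brown fat, cold makes sympathetic nerves release noradrenaline, which acts on the beta-3 adrenergic receptor encoded by Adrb3 and raises cyclic AMP. That signal turns on Dio2, whose product converts thyroxine to active thyroid hormone inside the cell, and the coactivator gene Ppargc1a, which works with the nuclear receptors Ppara, Pparg and Esrra and with the brown fat regulator Prdm16. Their best known target is Ucp1, the inner mitochondrial membrane protein that lets protons leak back and turns the energy of respiration into heat. Pank1 encodes a pantothenate kinase, which catalyses the first committed step of coenzyme A synthesis, and Elovl3 a cold-induced fatty acid elongase.

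The upstream sequences of the 3 members with knockout values are shown because these are the genes on which the immunoprecipitation results turn. Each is the 250 bases before a transcription start, written 5′ to 3′ on the coding strand from RefSeq for GRCm38.p6, the assembly that mm10 denotes. Capitals mark the cyclic AMP response element TGACGTCA, its half-site TGACG, which lies inside it, and the nuclear receptor half-site AGGTCA, each searched on both strands. Ucp1 is shown at chr8:83290098-83290347 (+ strand), Dio2 at chr12:90739039-90739288 (- strand), and the starts of Pank1 at chr19:34877918-34878167 and chr19:34879456-34879705 (- strand).
Ucp1: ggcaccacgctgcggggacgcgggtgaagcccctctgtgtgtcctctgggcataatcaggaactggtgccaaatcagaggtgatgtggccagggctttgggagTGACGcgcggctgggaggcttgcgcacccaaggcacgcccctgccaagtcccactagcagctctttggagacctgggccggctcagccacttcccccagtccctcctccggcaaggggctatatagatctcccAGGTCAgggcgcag
Dio2: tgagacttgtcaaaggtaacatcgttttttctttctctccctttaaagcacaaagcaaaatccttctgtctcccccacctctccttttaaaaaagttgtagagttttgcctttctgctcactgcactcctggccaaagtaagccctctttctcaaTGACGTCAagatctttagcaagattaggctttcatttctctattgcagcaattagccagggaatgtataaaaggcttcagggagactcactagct
Pank1, first window: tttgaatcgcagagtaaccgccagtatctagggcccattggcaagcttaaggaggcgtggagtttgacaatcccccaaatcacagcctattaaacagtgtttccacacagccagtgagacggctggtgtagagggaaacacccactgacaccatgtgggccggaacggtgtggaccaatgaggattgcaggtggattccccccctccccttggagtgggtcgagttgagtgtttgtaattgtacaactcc
Pank1, second window: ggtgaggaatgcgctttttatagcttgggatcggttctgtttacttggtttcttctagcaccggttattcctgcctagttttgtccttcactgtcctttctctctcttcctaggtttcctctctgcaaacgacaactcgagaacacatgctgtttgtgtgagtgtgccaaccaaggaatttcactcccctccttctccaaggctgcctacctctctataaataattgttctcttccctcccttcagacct

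Dio2 was the 1 member of 8 with a window that held the whole TGACGTCA, at bases -95 to -88 from its start, a match found in 1.55% of 32851 mouse windows. The half-site TGACG was in the windows of 4 of the 8 members, namely Ucp1 (at -147), Dio2, Ppargc1a (at -49) and Ppara (at -222), and in the windows of 19.8% of all genes. AGGTCA was in the windows of Ucp1, at -14 to -9, and Pparg, and in those of 15.8% of all genes. Neither Pank1 window held any of the 3 motifs. Adrb3 and Elovl3 were not searched. These letters describe the sequence only and say nothing of whether a factor bound there.

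Ucp1 mRNA was 1.10-fold higher in Imp2-/- than in wild-type total RNA, within the error of the comparison. Total RNA of wild-type mice held 5194 and 5489 CPM in libraries 16 and 17. Imp2-/- total RNA held 5979 and 5758 CPM in libraries 18 and 19. Both Imp2-/- values lay above both wild-type values, by a small margin. The log2 ratio of Imp2-/- to wild-type total RNA was 0.14 ± 0.27 (SE), with an adjusted p of 0.891 by edgeR's quasi-likelihood test and a 95% interval of -0.48 to 0.75. In bulk tissue, a difference in the number of brown adipocytes and one in Ucp1 mRNA per cell cannot be told apart.

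In the IMP2 immunoprecipitates Ucp1 was more abundant than in total RNA, with replicates that were far apart. The wild-type immunoprecipitates held 6693 CPM of Ucp1 in library 21 and 10860 CPM in library 22. Both exceeded both wild-type total RNA libraries. The means were 8776 ± 2946 CPM (SD, n = 2) and 5341 ± 208 CPM (SD, n = 2). Of the 1189 genes, edgeR put 118 higher and 148 lower in this comparison at an adjusted p under 0.05, and DESeq2 put 192 and 203. The log2 ratio for Ucp1 was 0.72 ± 0.27 (SE), with an adjusted p of 0.0878 by edgeR, above the threshold of 0.05 under which a gene is called here. Library 22 carried much of this: the ratio was 0.33 (adjusted p = 0.432, edgeR) without it and 1.02 (adjusted p = 0.0485) without library 21. DESeq2 gave 0.72 for Ucp1 with an adjusted p of 0.00775, and over 20 alternatives the adjusted p ran from 0.00775 to 0.432.

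Ucp1 was also present in the immunoprecipitates that the same antibody gave without IMP2, with no called difference from total RNA. The Imp2-/- immunoprecipitates held 5559 CPM of Ucp1 in library 23 and 8734 CPM in library 24. One lay below and the other above both Imp2-/- total RNA libraries, so these groups overlapped. The log2 ratio to Imp2-/- total RNA was 0.28 ± 0.27 (SE; adjusted p = 0.464, edgeR). It was -0.058 without library 24 (adjusted p = 0.906, against 0.161 to 0.906 over the alternatives). Set against each other, wild-type and Imp2-/- immunoprecipitates overlapped for Ucp1, with a log2 ratio of 0.30 ± 0.27 (SE; adjusted p = 0.582, edgeR), which turned to -0.094 without library 22 and -0.030 without library 23.

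The labels do not say which total RNA and which immunoprecipitate came from the same tissue. The order of the sample numbers gives a candidate match (16 with 21, 17 with 22, 18 with 23 and 19 with 24), under which differences between replicates were shared, with a Pearson r across 1189 genes of 0.716 in wild type and 0.802 in Imp2-/- mice. Genes are not independent replicates, and the match was chosen after the data were seen. With it as a block, Ucp1 rose in wild-type immunoprecipitates by 0.67 ± 0.17 on the log2 scale (SE; adjusted p = 0.00833, edgeR), with 0.37 and 0.98 in the pairs. That fit called 26.2% of the 1189 genes higher and 28.2% lower in wild type, and 28.4% and 29.3% in Imp2-/- mice. The Imp2-/- pairs had -0.10 and 0.60, and that ratio of 0.25 ± 0.17 did not pass (SE; adjusted p = 0.231, edgeR).

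Recovery here is a gene's CPM in the immunoprecipitate over its CPM in total RNA. It does not hold how much RNA each immunoprecipitate yielded. Within that limit, dependence of Ucp1 recovery on IMP2 was read from the difference between its wild-type and Imp2-/- recoveries. That difference was 0.43 ± 0.38 on the log2 scale (SE; adjusted p = 0.999, edgeR), with a 95% interval of -0.44 to 1.30. It ranged from 0.041 to 0.78 when each library was left out in turn. None of the 3 members passed this test, nor did any of the 1189 genes (0% called) with edgeR, DESeq2 or limma-voom, and 29 genes had an unadjusted edgeR p under 0.05, all of them with higher wild-type recovery. With the matched libraries as a block the Ucp1 difference was 0.43 ± 0.24 (SE; adjusted p = 0.489, edgeR), and again 0 of 1189 genes were called, with unadjusted p under 0.05 for 125 higher and 11 lower.

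**Figure D1:**
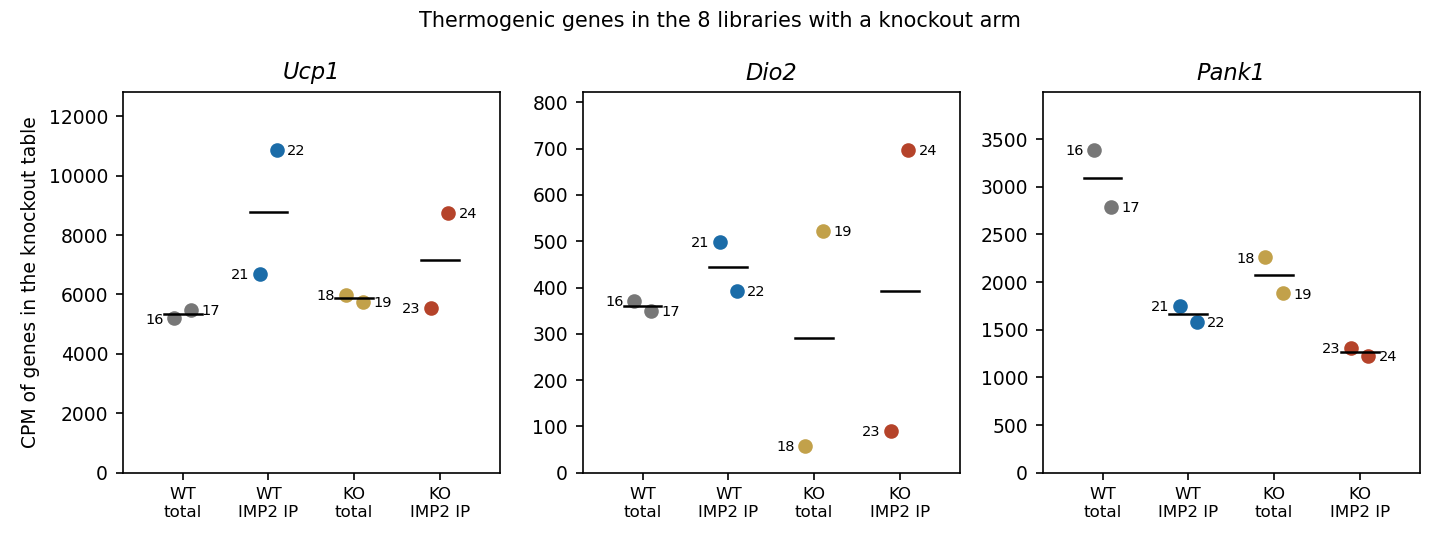
CPM of Ucp1, Dio2 and Pank1 (vertical axes start at 0) in the 8 libraries of the knockout table, by genotype and kind of RNA. Points are libraries with their sample numbers and lines are means of 2: Ucp1 is highest in libraries 22 and 24, Dio2 is low in libraries 18 and 23, and Pank1 falls from wild-type total RNA to the Imp2-/- immunoprecipitates.

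Whether the IMP2 or the IgG immunoprecipitate held more Ucp1 depended on the scaling. Total RNA of the IgG table held 5991 and 5324 CPM of Ucp1 in libraries 15 and 20. The IMP2 immunoprecipitate held 6913 CPM and the IgG immunoprecipitate 6400 CPM. Both immunoprecipitates lay above both total RNA libraries, and the IMP2 value was 1.08 times the IgG value, with a 95% counting interval of 1.05 to 1.11 from 8799 and 26201 counts. That interval covers counting error only. With the spread between total RNA libraries included, the log2 ratio of IMP2 to IgG was 0.11 ± 0.49 (SE; adjusted p = 0.987, edgeR), and it was -0.070 when scaled by library size alone.

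Ucp1 also differed between the tables. Over the 1189 genes that both tables list, wild-type total RNA held 5039 and 5293 CPM of Ucp1 in libraries 16 and 17, and 10745 and 9654 CPM in libraries 15 and 20. The IgG table's libraries were 1.97 times higher on average, the 27th largest difference of 1189 genes. Dio2 and Pank1 were 0.945 and 0.947 times as high there, far less than Ucp1. The genotype, age, diet and cold exposure given by the labels are the same for both pairs, and what else separates the pairs was not tested. This log2 difference of 0.98 is larger than the Ucp1 ratio of each of the 8 comparisons within a table.

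Dio2 divided the Imp2-/- libraries more than any other listed gene. Wild-type total RNA held 371 and 350 CPM of Dio2 in libraries 16 and 17. Imp2-/- total RNA held 58.3 CPM in library 18, from 140 counts, and 523 CPM in library 19, from 2475 counts. One Imp2-/- library was thus far below wild type and the other above it. The 8.98-fold gap between libraries 18 and 19 was the largest of all 1189 genes, at 3.17 on the log2 scale, and the next gene, the fast skeletal muscle troponin Tnni2, differed by 2.46. The wild-type pair differed 1.06-fold for Dio2, and the Imp2-/- pair 1.04-fold for Ucp1.

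The immunoprecipitates repeated that division. Imp2-/- immunoprecipitates held 90.1 CPM of Dio2 in library 23 and 697 CPM in library 24. This 7.73-fold gap was again the largest of 1189 genes, and the next, the troponin Tnnc2, was at 2.27 against 2.95 for Dio2 on the log2 scale. Wild-type immunoprecipitates held 498 and 392 CPM of Dio2 in libraries 21 and 22, close to each other and above both wild-type total RNA libraries. These are the libraries that the order of sample numbers matches.

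**Figure D2:**
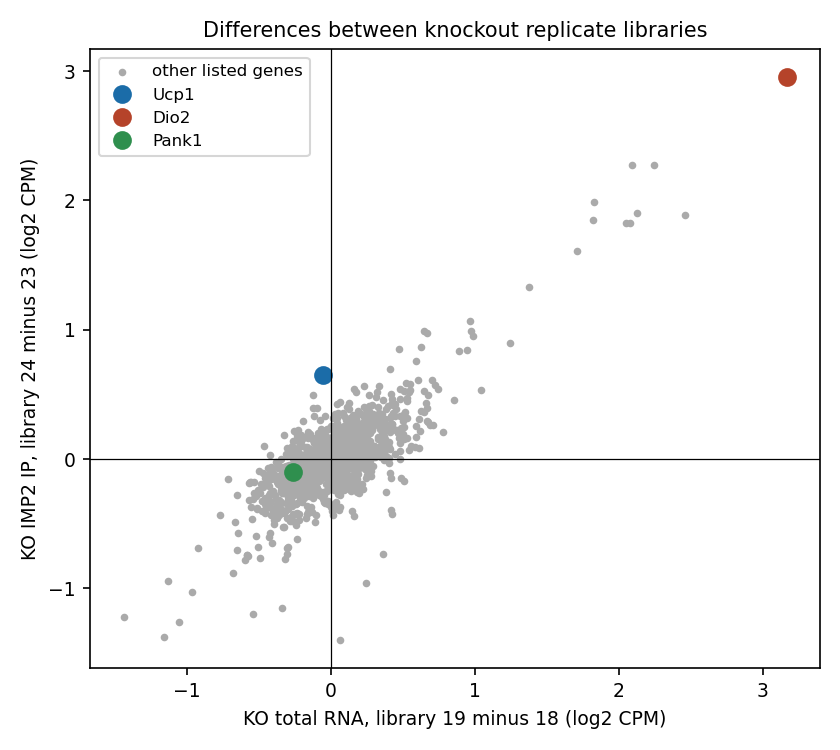
Differences between Imp2-/- replicate libraries for the 1189 genes of the knockout table, as log2 CPM of library 19 minus 18 (total RNA, horizontal) and library 24 minus 23 (immunoprecipitates, vertical). Each point is a gene: Dio2 lies farthest out at 3.17 and 2.95, while Pank1 and Ucp1 lie near the bulk of genes for total RNA.

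With libraries taken as unpaired, no comparison of Dio2 passed the test, and its errors hold the gap between libraries 18 and 19 and between 23 and 24. The log2 ratio of Imp2-/- to wild-type total RNA was -0.30 ± 0.97 (SE; adjusted p = 0.938, edgeR). It was 0.53 without libraries 18 and 23 (adjusted p = 0.486, against 0.428 to 0.995 over 19 alternatives), a choice made after the values were seen. Recovery of Dio2 over total RNA was 0.31 ± 0.98 in wild type (SE; adjusted p = 0.831, edgeR) and 0.42 ± 0.97 in Imp2-/- mice (SE; adjusted p = 0.787). Without libraries 18 and 23 these were 0.31 and 0.46, and neither passed. Under the match by sample number Dio2 was higher in the immunoprecipitate in 4 of 4 pairs, by 0.43 and 0.16 in wild type and by 0.62 and 0.41 in Imp2-/- mice. As a block it gave 0.31 ± 0.10 (SE; adjusted p = 0.0272, edgeR) and 0.48 ± 0.10 (SE; adjusted p = 0.00273), both called. That fit called 26.2% of all genes higher and 28.2% lower in wild type, and 28.4% and 29.3% in Imp2-/- mice. The difference between both recoveries of Dio2 was -0.11 ± 1.38 (SE; adjusted p = 0.999, edgeR), or -0.17 ± 0.14 with the block (adjusted p = 0.600). The direct ratio of wild-type to Imp2-/- immunoprecipitates was 0.18 ± 0.98 (SE; adjusted p = 0.939, edgeR) and -0.68 without libraries 18 and 23.

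Skeletal muscle markers moved with the same libraries. The 8 of 15 listed muscle markers summed to 596 CPM in library 18 and 2470 CPM in library 19, and to 363 CPM in library 23 and 1384 CPM in library 24. In wild-type mice they summed to 2701, 10515, 1540 and 7248 CPM in libraries 16, 17, 21 and 22. Library 17 thus had the most muscle RNA of the 8 while its Dio2, at 350 CPM, stayed within 1.06-fold of library 16. The part of muscle RNA in the Dio2 gap was not tested. The 9 of 16 listed brown adipocyte markers summed to 43389 to 54099 CPM over the 8 libraries. Ucp1 and Dio2 are among those 9, so these sums are not independent of the members.

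Both immunoprecipitates of the IgG table held more Dio2 than total RNA, by amounts the test did not call. Total RNA held 202 and 165 CPM of Dio2, the IMP2 immunoprecipitate 273 CPM and the IgG immunoprecipitate 248 CPM. IMP2 and IgG differed 1.10-fold, with a counting interval of 0.973 to 1.25 that includes equality, and scaling by library size alone turned the log2 ratio to -0.041. The log2 ratio to total RNA was 0.58 ± 0.39 for IMP2 (SE; adjusted p = 0.775, edgeR) and 0.44 ± 0.39 for IgG (SE; adjusted p = 0.640). Those 2 ratios share their total RNA libraries.

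Pank1 was the 1 member that passed the unpaired test in the knockout table, and it was depleted from the immunoprecipitates of both genotypes. Wild-type total RNA held 3384 and 2792 CPM of Pank1 in libraries 16 and 17, and wild-type immunoprecipitates 1754 and 1584 CPM in libraries 21 and 22. The groups were well apart, with means of 3088 ± 418 and 1669 ± 120 CPM (SD, n = 2 each). Pank1 fell by 0.89 ± 0.14 on the log2 scale (SE; adjusted p = 0.00439, edgeR), and the call held under all 20 alternatives, with an adjusted p of 0.0363 at most. It was the 1 of 3 listed members called in this comparison, in which 12.4% of 1189 genes were called lower and 9.92% higher.

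The Imp2-/- immunoprecipitates lost Pank1 as well. Imp2-/- total RNA held 2258 and 1881 CPM of Pank1 in libraries 18 and 19, and the immunoprecipitates 1313 and 1228 CPM in libraries 23 and 24. These groups did not overlap either. Pank1 fell by 0.70 ± 0.14 (log2, SE; adjusted p = 0.00794, edgeR), the 1 of 3 members called beside 15.7% of all genes called lower and 10.6% higher. The call was lost without library 18 (-0.54, adjusted p = 0.0625), without library 24 (-0.64, adjusted p = 0.0615) and without libraries 18 and 23 (-0.57, adjusted p = 0.135), against a range from 1.78e-05 to 0.135 over 19 alternatives. The difference between both recoveries was -0.18 ± 0.20 (SE; adjusted p = 0.999, edgeR), with a 95% interval of -0.63 to 0.27.

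Pank1 was also lower in Imp2-/- mice than in wild type, without passing the main test. Both Imp2-/- total RNA libraries lay below both wild-type ones, and the log2 ratio was -0.58 ± 0.14 (SE; unadjusted p = 0.00281, adjusted p = 0.257, edgeR). DESeq2 called Pank1 (-0.57, adjusted p = 0.00705), against a range of 0.00705 to 0.645 over 19 alternatives. In this comparison edgeR called 0 of 1189 genes (0%), with unadjusted p under 0.05 for 74 higher and 58 lower genes. DESeq2 called 18 genes higher and 17 lower, and limma-voom called none. Between the immunoprecipitates Pank1 was again higher in wild type, at 0.39 ± 0.14 on the log2 scale (SE; adjusted p = 0.212, edgeR), with groups that did not overlap. There edgeR and limma-voom called 0 of 1189 genes (0%), 123 higher and 88 lower genes had an unadjusted edgeR p under 0.05, and DESeq2 called 60 higher and 33 lower, none of them a member.

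Of the IgG table's libraries, Pank1 stood at 1705 and 1428 CPM in total RNA, 1299 CPM in the IMP2 immunoprecipitate and 869 CPM in the IgG immunoprecipitate. Both immunoprecipitates lay below both total RNA libraries, the IgG one by more. IMP2 over IgG was 1.495-fold for Pank1, with a counting interval of 1.41 to 1.59, the largest such ratio of the 10 members. The log2 ratio was 0.58 ± 0.47 once the spread between libraries was included (SE; adjusted p = 0.920, edgeR). Over both tables together, with a term for the table, Pank1 fell by 0.68 in IMP2 immunoprecipitates against total RNA (adjusted p = 0.00548, edgeR) and by 0.80 in IgG (adjusted p = 0.0318). Within the IgG table alone these ratios were -0.27 and -0.85, and neither passed. The joint fit was over the 1189 genes of both tables and took in the knockout table's libraries. The share of all genes that it called was not computed, so its 2 calls have no background to be read against.

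No member was called in any of the 3 comparisons of the IgG table, by edgeR or DESeq2. The log2 ratio largest in size among the members was that of Elovl3 in both comparisons with total RNA. It was -0.94 for IMP2 and -1.29 for IgG, at percentiles 12.1 and 4.94 of all tested genes. In IMP2 over IgG the largest was -0.79, for Prdm16, at percentile 16.1. Each immunoprecipitate there is 1 library. Few genes of any kind were called in that table. Of 8966 tested genes, 0.0446% were called higher and 0.859% lower in IMP2 over total RNA, 0.48% higher and 1.52% lower in IgG over total RNA, and 0.0558% higher and 0.178% lower in IMP2 over IgG. The median log2 ratio of the 10 members was 0.26 in IMP2 over total RNA, 0.43 in IgG over total RNA and 0.11 in IMP2 over IgG, beside medians over all tested genes of -0.03, -0.01 and -0.01.

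**Figure D3:**
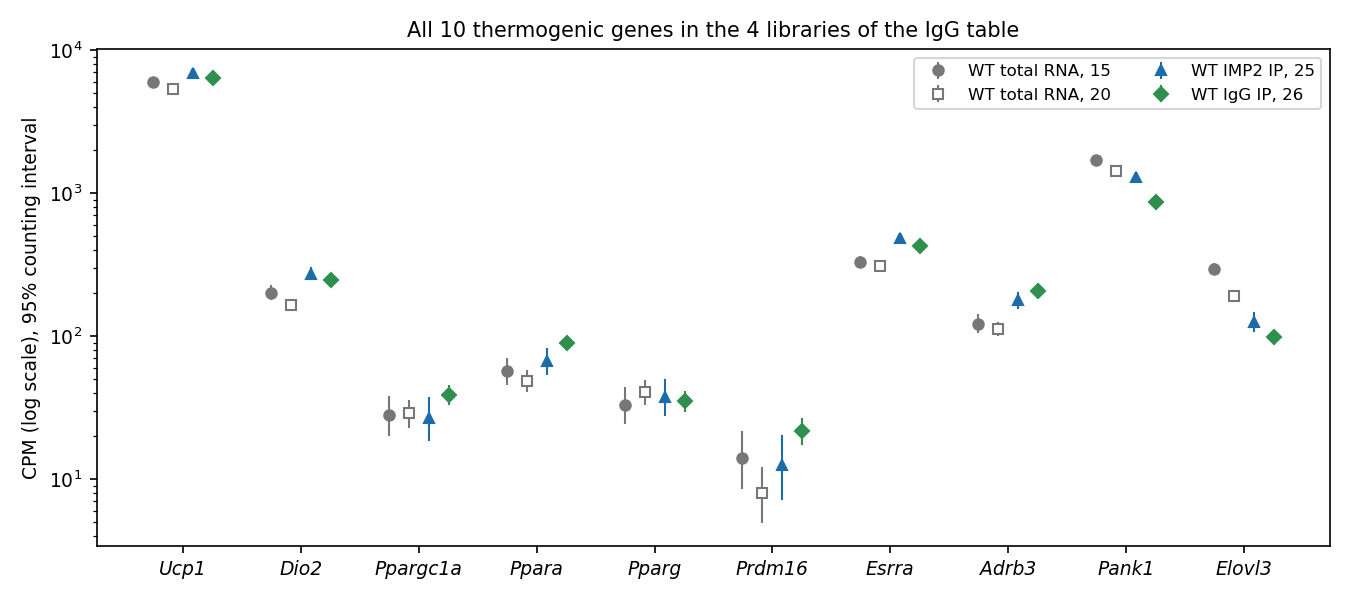
CPM (log scale) of the 10 members in the 4 libraries of the IgG table, with exact 95% Poisson intervals that cover counting error only. Both immunoprecipitates lie above both total RNA libraries for Ucp1, Dio2, Ppara, Esrra and Adrb3, and below both for Pank1 and Elovl3. The share of all tested genes placed in the same way was not computed, so this order is not a trait of the members.

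The receptor Adrb3 was more abundant in both immunoprecipitates than in total RNA. It stood at 122 and 113 CPM in libraries 15 and 20, 178 CPM in the IMP2 immunoprecipitate and 208 CPM in the IgG immunoprecipitate. The IgG value was the higher of the pair, at an IMP2 over IgG ratio of 0.856 with a counting interval of 0.736 to 0.992. The log2 ratios to total RNA were 0.60 ± 0.40 for IMP2 (SE; adjusted p = 0.766, edgeR) and 0.83 ± 0.39 for IgG (SE; adjusted p = 0.294).

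Among the nuclear receptors, Esrra and Ppara were above total RNA in both immunoprecipitates and Pparg was not. Esrra, which drives mitochondrial genes together with Ppargc1a, stood at 331 and 310 CPM in total RNA, 489 CPM with IMP2 and 428 CPM with IgG. Ppara, a regulator of fatty acid oxidation, stood at 57.0 and 48.5 CPM in total RNA, 66.8 CPM with IMP2 and 90.1 CPM with IgG. The order of IMP2 and IgG was thus opposite for them, with IMP2 over IgG ratios of 1.14 (counting interval 1.04 to 1.25) for Esrra and 0.741 (0.578 to 0.940) for Ppara. Pparg, the master regulator of fat cell formation, stood at 33.1 and 40.6 CPM in total RNA, 37.7 CPM with IMP2 and 34.9 CPM with IgG. The counting intervals of all 4 Pparg values overlapped.

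The coregulators Ppargc1a and Prdm16 had the fewest counts. Ppargc1a stood at 28.1 and 28.8 CPM in total RNA (40 and 76 counts), 26.7 CPM with IMP2 (34 counts) and 38.8 CPM with IgG (159 counts). The IgG value was the highest, and the IMP2 over IgG ratio was 0.688 with a counting interval of 0.460 to 1.001. Prdm16 stood at 14.1 and 7.96 CPM in total RNA (20 and 21 counts), 12.6 CPM with IMP2 (16 counts) and 21.7 CPM with IgG (89 counts). IgG was again highest for Prdm16, at an IMP2 over IgG ratio of 0.578 (0.317 to 0.992). The edgeR intervals, which add the spread between libraries to counting error, were wider. Those of IMP2 over IgG ran from -1.63 to 0.55 on the log2 scale for Ppargc1a and from -2.16 to 0.58 for Prdm16.

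Elovl3 had the lowest ratios to total RNA of the 10. It stood at 295 and 192 CPM in libraries 15 and 20, 126 CPM in the IMP2 immunoprecipitate and 99.4 CPM in the IgG immunoprecipitate. Both immunoprecipitates lay below both total RNA libraries, which themselves differed 1.54-fold. The log2 ratio was -0.94 ± 0.42 for IMP2 (SE; adjusted p = 0.478, edgeR) and -1.29 ± 0.42 for IgG (SE; adjusted p = 0.0779). IMP2 over IgG was 1.27 for Elovl3, with a counting interval of 1.05 to 1.53.

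**Figure D4:**
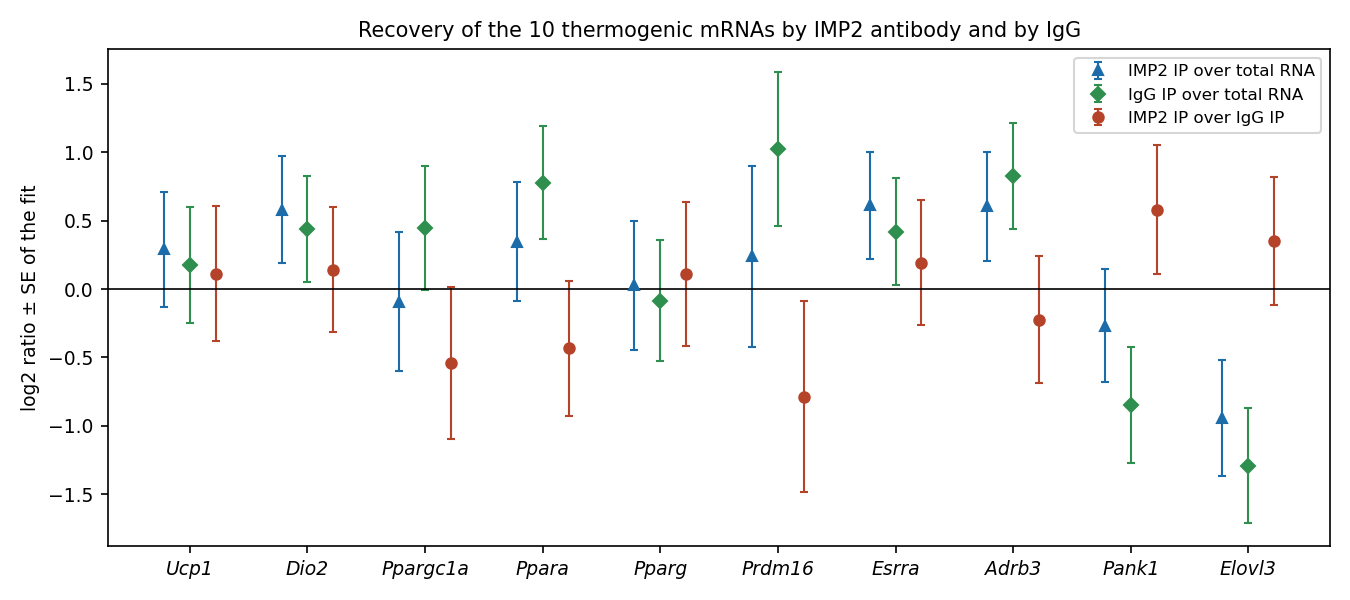
Log2 ratios of the 10 members in the IgG table with standard errors of the edgeR fit, for IMP2 over total RNA, IgG over total RNA and IMP2 over IgG. The first and second of these share their total RNA libraries, and IMP2 over IgG runs from -0.79 for Prdm16 to 0.58 for Pank1.

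Genes that work beside the members were counted by list. The brown adipocyte list also holds members themselves, namely Ucp1, Dio2, Ppargc1a, Prdm16 and Pparg, while the other lists leave members out. Of 16 brown adipocyte markers, 9 are listed in the knockout table, Ucp1 and Dio2 among them. There 1 rose and 1 fell in wild-type immunoprecipitates, beside the 9.92% and 12.4% of all genes given above. In Imp2-/- immunoprecipitates 2 rose and 2 fell, beside 10.6% and 15.7%. Fabp4, the fatty acid carrier of fat cells, rose by 1.01 in wild type (adjusted p = 0.0177, edgeR) and by 1.06 in Imp2-/- mice (adjusted p = 0.0127). Cox8b, a cytochrome oxidase subunit of brown fat and muscle, fell by 0.60 and by 0.82 (adjusted p = 0.0371 and 0.00892). The rise of Fabp4 was thus present without IMP2 too. The others called in Imp2-/- mice were Plin5, a lipid droplet coat protein that rose (0.52, adjusted p = 0.0304, edgeR), and Cox7a1, another oxidase subunit, which fell by 0.50 (adjusted p = 0.0419). The IgG table lists 13 of the 16 markers, and none was called in the 3 comparisons by edgeR.

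Of the signalling lists, 5 of 33 adrenergic and cyclic AMP genes and 3 of 15 thyroid hormone pathway genes are listed in the knockout table, and edgeR called none of them in its 5 comparisons. The IgG table had 27 and 12 of these genes tested, and none was called. Among them, Gnas stood at 867 and 936 CPM in total RNA, 1759 CPM with IMP2 and 1194 CPM with IgG. Gnas, the stimulatory G protein subunit downstream of Adrb3, had a log2 ratio of 0.96 ± 0.40 in IMP2 over total RNA (SE; adjusted p = 0.386, edgeR). Of the PPAR, ERR and PGC1 partners, 4 of 38 are listed in the knockout table, and 28 were tested in the IgG table with none called. In the knockout table Nr1h3, the liver X receptor alpha, fell in Imp2-/- immunoprecipitates by 0.45 (adjusted p = 0.0288, edgeR). Wild-type immunoprecipitates also held less Nr1h3, without a call, at 600 and 693 CPM against 811 and 868 CPM in total RNA.

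The neighbours of Pank1 in coenzyme A synthesis were not called in either table, with 3 of 15 listed in the knockout table and 13 in the IgG table. The mitochondrial coenzyme A carrier Slc25a42 had 0.99 ± 0.39 in IMP2 over total RNA (SE; adjusted p = 0.349, edgeR). Slc25a42 stood at 137 and 119 CPM in total RNA, 254 CPM with IMP2 and 238 CPM with IgG, so both immunoprecipitates were higher. Among the 7 other uncoupling and adenine nucleotide carriers 4 were tested in the IgG table and 1 in the knockout table, with none called. Of these, Ucp3 stood at 33.8 and 48.5 CPM in total RNA, 47.1 CPM with IMP2 and 59.6 CPM with IgG. Ucp3, the close relative of Ucp1 found in muscle and brown fat, had 0.18 ± 0.45 in IMP2 over total RNA (SE; adjusted p = 0.970, edgeR).

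Around Elovl3, the elongase Elovl6 was set apart. Elovl6 lengthens palmitate to stearate and held 4462 and 5371 CPM in total RNA, 1191 CPM in the IMP2 immunoprecipitate and 4614 CPM in the IgG immunoprecipitate. IMP2 was the low library and IgG lay between both total RNA values. The log2 ratio of Elovl6 was -2.05 ± 0.47 against total RNA (SE; adjusted p = 0.00389, edgeR) and -1.95 ± 0.50 against IgG (adjusted p = 0.0468), the 1 gene called among 12 tested of the elongation and desaturation list. Hsd17b12, which reduces the elongation intermediate, was the 1 of 2 listed in the knockout table that was called, and it fell by 0.72 in wild-type immunoprecipitates (adjusted p = 0.0296, edgeR). Imp2-/- immunoprecipitates also held less Hsd17b12, without a call, at 534 and 673 CPM against 733 and 996 CPM in total RNA. In the IgG table Hsd17b12 stood at 376 and 384 CPM in total RNA, 221 CPM with IMP2 and 207 CPM with IgG.

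Markers of skeletal muscle and red blood cells were lowest in the IgG immunoprecipitate. Among the red blood cell markers, Hba-a1 and Hba-a2 had identical counts in every library. They are not separate measurements in the sums and counts given here. Skeletal muscle markers summed to 19141 and 10360 CPM in total RNA of the IgG table, 10168 CPM with IMP2 and 7092 CPM with IgG. Of these 15 markers 2 fell in IMP2 over total RNA and 5 fell in IgG over total RNA. Red blood cell markers summed to 4678 and 3307 CPM, then 2334 CPM with IMP2 and 1306 CPM with IgG, and 3 of 6 tested fell in the IgG comparison. White fat, leukocyte and endothelial markers summed to 284 to 519, 133 to 292 and 597 to 690 CPM over the 4 libraries, with 1 of 6 white fat markers called lower in IgG over total RNA and no other call. The part of these shares in the members' ratios was not tested. Of the brown fat transcription factors, Ebf2, Zic1 and Lhx8 are not among the genes of the IgG table used here, and the label of brown fat rests on Ucp1, Cidea and the other markers listed.

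The deleted gene Igf2bp2 could not check the Imp2-/- labels, since the knockout table as used here does not hold it. Its counts in the IgG table were 20 and 16 in total RNA, 8 with IMP2 and 16 with IgG. These counts are too few to compare the libraries.

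The genes most like each member were found by Pearson's r of log2(CPM + 1) over the 12 libraries, with each table centred on its own mean. For Ucp1 they were Ppp4c (r = 0.836), Fh1 (0.831), which encodes fumarase of the citric acid cycle, and Psmb4 (0.830), a proteasome subunit. For Dio2 they were Aatk (0.930), Mrps2 (0.898), a mitochondrial ribosomal protein, and Lncbate10 (0.862), a long noncoding RNA of brown fat. For Pank1 they were Pgls (0.953), of the pentose phosphate pathway, Ubqln1 (0.951) and 1810043H04Rik (0.949). These describe 12 libraries that differ in genotype, kind of RNA and depth together. The log2 ratio of Fh1 to total RNA was 1.07 in wild-type and 0.78 in Imp2-/- immunoprecipitates, where Ucp1 had 0.72 and 0.28 and did not pass. Ubqln1 fell by 1.07 and by 0.82. Both genes were picked for their likeness over these same libraries, so a direction shared with the member follows from the choice and is no separate result.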

How the data were processed

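RNA was measured by sequencing in 12 brown fat libraries, and liver samples were not analysed here. The authors deposited whole-number read counts per transcript with no scaling. The submitters' processing notes list TopHat2 2.0.8, Cufflinks 2.1.1 and the build mm10, without their roles. How reads were counted, with which annotation, and by what rule transcripts were listed is not given in the sources used here. There are 1579 transcripts in the knockout table and 12840 in the other. For 117 and 835 that lack a symbol, a RefSeq table gave names through the accession; the 3 and 22 left unnamed, which took 7.39 to 29.2% of a library's listed counts, were left out of library sizes and tests. The transcript row with the highest summed count was kept for each gene, chosen within each table, so the row kept for Pank1 differs between tables.

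Scaling was by TMM (trimmed mean of M-values), and edgeR 4.0.16 in R 4.3.3 gave the quasi-likelihood F tests, after its filter on low counts, with Benjamini-Hochberg adjustment over the 1189 or 8966 genes tested and a threshold of 0.05. One fit per table over all its groups left 4 and 1 residual degrees of freedom, with a biological coefficient of variation of 15.3 and 25.1%. In the IgG table each immunoprecipitate is 1 library and is assumed to vary like total RNA. Its tests had 8966 total degrees of freedom, because the spread between libraries was pooled over all genes. Standard errors and intervals of that table therefore do not reflect each gene's own spread. Standard errors come from the same fits. Counting intervals (95%) are exact Poisson for CPM and exact binomial for ratios, and cover counting error only, since reads are not independent molecules. Scripts were tested on simulated data. The text names all members and, of each list, up to 2 genes with the largest and 2 with the smallest called ratios, or where none was called up to 2 with the highest CPM. The 3 nearest patterns were taken among genes with a mean of at least 20 CPM in each table, and Igf2bp2 was named as the deleted gene. Members and lists were chosen with earlier results of these data known. Alternatives were other scalings, other filters, DESeq2 1.42.0, limma-voom (limma 3.58.1), summed transcript rows, fits of the compared groups or of both tables, a block of libraries matched by sample number (2 residual degrees of freedom), and leaving out libraries.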

Additional observations from a re-analysis of the deposited data

How the results depend on the processing

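Of 675 alternative values, 632 were classed as the same as the main result. For a tested ratio that meant the same direction and side of the threshold. A count of called members had to be similar in size. An untested ratio of the IgG table had only to lie within the SD of the total RNA libraries, so signs that turned there are among the 632. In wild-type immunoprecipitates over total RNA DESeq2 called 192 of 1189 genes higher and 203 lower, beside 118 and 148 with edgeR. Calls of members in wild-type immunoprecipitates over total RNA rose from 1 to 2 with upper-quartile scaling (Ucp1 0.85, adjusted p = 0.0417, edgeR) and with DESeq2, and ranged from 1 to 2 when each library was left out. In Imp2-/- immunoprecipitates they ranged from 0 to 1, and were 0 without libraries 18 and 23, a setting chosen after seeing the data. In Imp2-/- over wild-type total RNA DESeq2 called 1. The joint fit of both tables called 1 member in IMP2 and 1 in IgG over total RNA, and the share of all genes that it called was not computed. The causes of these changes were not tested. The fit of both tables was also applied to the knockout comparisons after seeing the data, and no call changed there.

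Directions turned as follows. For Dio2 in the knockout table, leaving out each library gave log2 values from -1.68 to 2.75 for Imp2-/- recovery, -2.44 to 1.999 for the difference of recoveries, -2.63 to 0.53 for Imp2-/- over wild-type total RNA and -0.68 to 2.30 between immunoprecipitates. Limma-voom gave 0.00016 for the difference, and leaving out 18 and 23 gave 0.53 for total RNA and -0.68 between immunoprecipitates. For Ucp1 the ranges were -0.058 to 0.62 for Imp2-/- recovery and -0.094 to 0.65 between immunoprecipitates, with -0.030 without 18 and 23. In the IgG table library-size scaling gave 0.080 for Pparg in IgG over total RNA and -0.041, -0.070 and -0.070 for Dio2, Pparg and Ucp1 in IMP2 over IgG, and the fit of both tables gave -0.20 for Dio2 in IMP2 over IgG. That scaling moved the median of all genes by 0.17 in IgG over total RNA and -0.18 in IMP2 over IgG, and upper-quartile scaling by 0.14 and 0.17 in wild-type and Imp2-/- recovery.

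The labels pair no libraries. With a replicate block from the match by order of sample numbers, chosen after seeing the data, 3 members were called in wild-type recovery (Ucp1, Dio2 and Pank1) and 2 in Imp2-/- recovery (Dio2 and Pank1), and still none in their difference. The same fit called 26.2% of all 1189 genes higher and 28.2% lower in wild type, and 28.4% and 29.3% in Imp2-/- mice. No block can be fitted for the comparisons between genotypes, since each pair has 1 genotype, and none was fitted in the IgG table. Leaving out a total RNA library of the IgG table left no residual degree of freedom. Those values have no test, and their sign turned for Prdm16 (-0.16 to 0.67) and Pparg (-0.093 to 0.19) in IMP2 over total RNA and for Pparg (-0.22 to 0.081) in IgG over total RNA. Where a group kept 1 library, it was assumed to vary like the others.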
